A study of Mus musculus with 12 samples.

Results

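The response of Smad4 knockout (KO) muscle to 14 days of denervation was described across all genes of a mouse array. The members are 6 of the 12 arrays of the series, chosen by their labels: 3 of denervated and 3 of control gastrocnemius, a calf muscle, of KO mice. All animals were adult male CD1 mice, and the other 6 arrays hold the same 3 and 3 for wild-type (WT) muscle. The WT arrays were used to share the estimate of spread and to test where the KO response differed. They also entered the filter of probes and the choice of the probe that stands for each gene. The denervated groups had lost the nerve supply of the muscle for 14 days. The labels give no surgical treatment for the control muscles, and they do not say in which cells or in which part of the gene Smad4 was deleted, so the model cannot be narrowed to the muscle fibre here. Each condition came from 3 independent experiments with different animals, so p-values rest on the spread between 3 muscles a group.

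A skeletal muscle fibre depends on its motor nerve for activity and for the clustering of acetylcholine receptors at a single synapse. After the nerve is cut, electrical activity stops, fibres make receptor and other embryonic proteins along their length, oxidative enzymes decline and the fibre shrinks. Smad4 is the common partner of the Smad proteins that carry signals from receptors for BMPs, which oppose the shrinking, and from receptors for myostatin, activins and TGF-beta, which favour it. The comparison asks what denervation changes in a muscle whose Smad4 gene has been targeted.

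Values below are log2 signal minus the 75th percentile of the array, given for replicates 1, 2 and 3 in that order, so that 0 is the signal which 75% of probes do not exceed. A change is the mean of the KO denervated arrays minus that of the KO control arrays on this scale, with its standard error (SE), and a change of 1 is a 2-fold difference. Values on this scale order arrays for one gene and do not rank genes by transcript amount. Adjusted p-values are from limma with Benjamini-Hochberg adjustment over all 15221 genes tested, and a gene was called, and is said to have risen or fallen, when its adjusted p was under 0.05.

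Arrays of one KO group resembled each other more (r = 0.979 to 0.985) than arrays of different KO groups did (0.899 to 0.921). The share of probes well above background was 49.9% to 51.9% on KO control and 55.4% to 55.5% on KO denervated arrays, and the 75th percentile of the signal was 238.5 to 270.0 against 275.8 to 363.9 intensity units. The arrays lay on 4 slides, of which 2 held one array of each KO group. Of 7112 called genes measured on those slides, 7075 (99.5%) changed in the direction of the call on both. The same arrays made the calls, so this share is no independent check of the slides. With slide as a block 6631 genes were called. KO control 3 carried the highest KO control signal for 57.2% of genes called at least 8-fold higher, against 24.2% of all genes, so several of the induced genes described here were already higher on that array. The targeted gene, Smad4, was at 2.42, 2.38 and 2.19 in KO control and at 1.77, 2.05 and 1.89 in KO denervated muscle. Its signal was therefore well above background on all 6 arrays, and whether its probe lies in the deleted part is not known. The fall of 0.43 (SE 0.15, adjusted p = 0.0415) lost its call under 11 of 22 alternative settings.

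Denervation changed 7142 genes (46.9% of those tested) in KO muscle, 3605 upward (23.7%) and 3537 downward (23.2%). These shares are the background against which each gene group below is to be read. At least 2-fold changes numbered 1807 upward and 1745 downward, and at least 16-fold changes 89 and 25. The arrays of the 2 groups did not overlap for 97.2% of called genes, against 56.7% of all genes. Without KO control 3, 3115 genes rose and 3155 fell. With the normexp background correction 2730 genes were called, 1183 higher and 1547 lower. Because the tissue was whole muscle, fewer cells of a type and less RNA per cell cannot be told apart in any of these values.

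The muscle acetylcholine receptor was induced together with its embryonic subunit, while the adult subunit was not called. Chrna1, the alpha subunit that binds acetylcholine, was at 2.31, 2.32 and 2.46 in KO control muscle and at 6.71, 6.74 and 6.71 in KO denervated muscle, a rise of 4.36 (SE 0.13, adjusted p = 1.6e-08). The arrays of each group lay close together, with a spread far below the change. Chrng, the embryonic gamma subunit, was at -4.36, -4.08 and -1.50 and then at 4.75, 4.78 and 4.72, a rise of 8.06 (SE 0.69, adjusted p = 6.53e-06). Of the control arrays only replicate 3 was well above background for it, and its other probe gave 4.12, so its size is uncertain while its arrays stayed far apart. Chrnb1, the beta subunit, was at 0.34, 0.60 and 0.84 and then at 3.15, 2.85 and 3.32, a rise of 2.51 (SE 0.21, adjusted p = 9.1e-06). Chrnd, the delta subunit, lay at background on the 3 KO control arrays and was at 1.40, 1.11 and 1.29 after denervation. Set against the lowest detectable signal of the control arrays it was at least 37.4-fold higher. Chrne, the epsilon subunit that replaces gamma at the adult synapse, was at 1.15, 1.39 and 1.54 and then at 0.90, 1.04 and 1.25. Its groups overlapped, and the change of -0.30 (SE 0.16) was not called (adjusted p = 0.149).

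The E-box CAGCTG is a motif that myogenic regulatory factors are known to bind. The 250 bases before the start of receptor and anchor genes are shown because 4 of these 5 genes rose and Chrne was not called, while their promoters differ in this motif. They are from RefSeq (GRCm38.p6), read 5′ to 3′ on the strand of the gene, with CAGCTG in capitals. Chrna1 lies on the minus strand at chr2:73580339-73580588, Chrng on the plus strand at chr1:87205561-87205810, Chrnb1 on the minus strand at chr11:69795938-69796187, Musk on the plus strand at chr4:58285712-58285961 and Chrne on the minus strand at chr11:70619195-70619444.
Chrna1: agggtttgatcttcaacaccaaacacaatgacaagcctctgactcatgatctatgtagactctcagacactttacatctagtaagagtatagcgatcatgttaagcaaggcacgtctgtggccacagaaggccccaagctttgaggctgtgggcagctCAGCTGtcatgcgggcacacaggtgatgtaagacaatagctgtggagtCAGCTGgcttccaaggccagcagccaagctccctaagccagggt
Chrng: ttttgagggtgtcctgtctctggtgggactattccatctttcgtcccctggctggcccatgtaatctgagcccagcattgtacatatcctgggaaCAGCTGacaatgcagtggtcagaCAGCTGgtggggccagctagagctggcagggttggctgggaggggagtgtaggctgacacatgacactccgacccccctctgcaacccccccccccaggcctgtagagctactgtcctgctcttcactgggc
Chrnb1: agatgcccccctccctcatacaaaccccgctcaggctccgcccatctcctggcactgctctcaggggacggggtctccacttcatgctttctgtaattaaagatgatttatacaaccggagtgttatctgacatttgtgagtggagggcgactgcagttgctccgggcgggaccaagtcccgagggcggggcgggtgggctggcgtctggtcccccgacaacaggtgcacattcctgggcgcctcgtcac
Musk: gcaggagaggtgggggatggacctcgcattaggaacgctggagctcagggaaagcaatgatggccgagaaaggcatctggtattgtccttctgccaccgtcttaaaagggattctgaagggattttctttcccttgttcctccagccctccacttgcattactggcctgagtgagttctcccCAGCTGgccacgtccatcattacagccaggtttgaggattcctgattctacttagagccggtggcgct
Chrne: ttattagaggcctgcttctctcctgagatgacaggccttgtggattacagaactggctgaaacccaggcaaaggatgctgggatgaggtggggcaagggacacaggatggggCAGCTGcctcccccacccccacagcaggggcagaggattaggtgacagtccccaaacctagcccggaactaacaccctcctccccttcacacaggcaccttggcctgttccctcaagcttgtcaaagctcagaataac
CAGCTG, which is its own reverse complement, occurred 2 times before Chrna1 and before Chrng, 1 time before Musk and before Chrne, and not in the window of Chrnb1. Chrna1 carried it 92 and 44 bases before the start, and Chrng 155 and 132 bases before it. The uncalled Chrne thus held the motif and the risen Chrnb1 did not. The broader motif CANNTG, which contains CAGCTG and was searched on both strands, occurred 3 times in the window of Chrnb1. Among all 27025 promoters listed, 14.7% held CAGCTG and 69.3% held CANNTG. The share with CAGCTG was 14.8% of genes called higher and 16.7% of genes called lower. Among those called at least 4-fold higher it was 22.2%, and among those at least 4-fold lower 17.9%. These matches describe the letters in the window and show no binding.

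Of 16 tested genes of the receptor and its anchors, 7 rose and 3 fell, with a median change of 0.40 against 0.00 over all genes. Musk, the receptor kinase that gathers acetylcholine receptors under the nerve ending, was at -3.40, -3.32 and -2.68 and then at -1.31, -1.44 and -0.84, a rise of 1.94 (SE 0.29, adjusted p = 0.000328). The groups were apart although 1 control array was not well above background. Its partner Lrp4 rose by 0.93, whereas Agrn, the nerve-derived signal they receive, and Rapsn, the receptor scaffold, were not called (changes of 0.34 and -0.38). Ache, the enzyme that ends transmission by splitting acetylcholine, fell by 2.49 (SE 0.36, adjusted p = 0.000233), from -0.40, 0.10 and 0.30 to -2.33, -2.96 and -2.16.

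**Figure D1:**
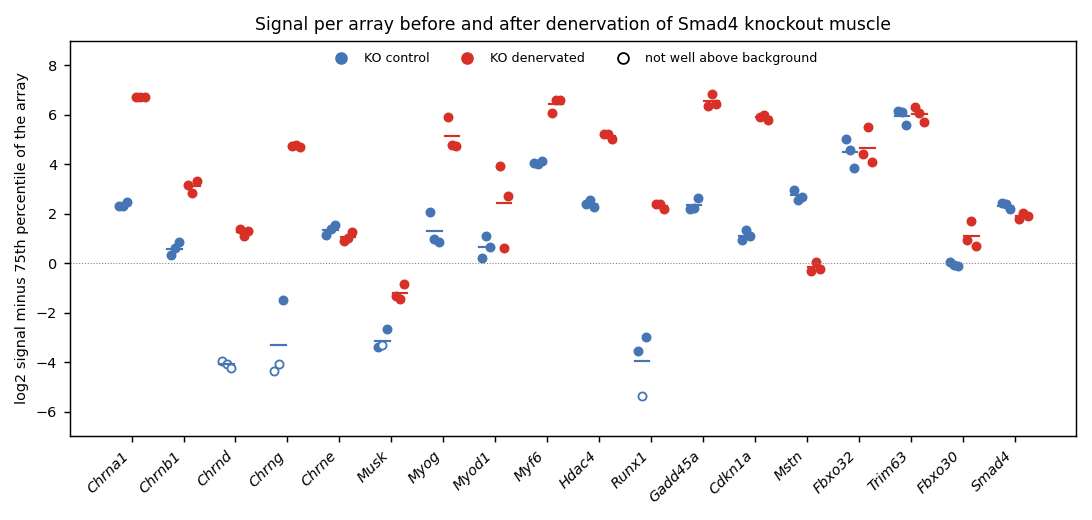
Signal of 18 genes on each KO array, as log2 signal minus the 75th percentile of the array, with blue points for KO control, red points for KO denervated, open points for arrays not well above background and bars at the mean of 3 arrays. Chrna1, Chrnb1, Myog, Hdac4 and Cdkn1a lie apart between groups, while the points of Chrne, Fbxo32 and Trim63 overlap.

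Of 15 adhesion and nerve attraction genes 6 rose, 3 fell and 6 were not called, the cadherins Cdh2, Cdh11 and Cdh15 among the last. Nrcam, a neural cell adhesion molecule, was at -3.69, -3.62 and -2.15 and then at 3.77, 4.11 and 3.94, a rise of 7.10 (SE 0.39, adjusted p = 3.65e-07). Ncam1, the best known adhesion marker of denervated fibres, was at -0.19, 0.08 and 0.88 and then at 3.01, 2.59 and 3.82. It rose by 2.88 (SE 0.44, adjusted p = 0.000314), although its 8 probes ranged from 0.29 to 3.61. The neuregulin receptors Erbb3 and Erbb2 rose by 1.87 and 1.53. Laminin chains moved both ways, with Lama5 up by 1.40 and the synaptic chain Lamb2 down by 0.87.

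Among 12 neurotrophic factors and receptors, 2 rose and 5 fell, with a median of -0.52. Gdnf, a survival factor for motor neurons, was at -5.27, -3.37 and -3.19 and then at -1.49, -0.30 and -0.79, a rise of 3.08 (SE 0.51, adjusted p = 0.000543). Ntf5, which encodes neurotrophin 4, was at 0.14, 0.81 and 0.45 and then at -2.32, -2.79 and -2.53, a fall of 3.01 (SE 0.23, adjusted p = 3.12e-06). These 2 ligands thus moved in opposite directions, each with arrays apart. Cntfr, the receptor subunit for ciliary neurotrophic factor, fell by 1.76 and Nrtn, a ligand of the same family as Gdnf, by 1.04. Ngfr rose by 2.28 on its brightest probe, and its other probe changed by -0.63.

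The myogenic programme rose in part. Myog, the factor that drives receptor genes after denervation, was at 2.06, 0.96 and 0.84 and then at 5.90, 4.78 and 4.73, a rise of 3.85 (SE 0.37, adjusted p = 1.34e-05). Replicate 1 was the highest in both groups, and the groups were apart by more than 2. Myf6, the myogenic factor of adult fibres, was at 4.06, 4.01 and 4.14 and then at 6.09, 6.61 and 6.61, a rise of 2.36 (SE 0.19, adjusted p = 3.81e-06). Myod1 was at 0.22, 1.1 and 0.66 and then at 3.93, 0.62 and 2.72. Its groups overlapped through KO denervated 2, and its rise of 1.76 (SE 0.65, adjusted p = 0.044) lost its call under 14 of 22 alternatives. Mymk, the membrane protein myomaker needed for fusion of muscle cells, rose by 3.28 and Tead4 by 2.88. Vgll2, a cofactor of Tead proteins, fell by 2.66 and Nfix by 1.21. Over the list 8 of 17 genes rose and 3 fell.

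Repressors of synaptic genes and their partners also moved in opposite directions. Hdac4, a deacetylase that relieves repression of Myog after denervation, was at 2.39, 2.57 and 2.26 and then at 5.23, 5.21 and 5.04, a rise of 2.75 (SE 0.14, adjusted p = 2.56e-07). Dach2, a repressor of Myog, was at -3.18, -3.90 and -3.26 and then at -6.13, -6.43 and -6.39. It was well above background on 2 control arrays and no denervated array, so the size of the change is not given. The class relatives Hdac9 and Hdac5 fell by 2.13 and 1.12. Runx1, a transcription factor induced in denervated muscle, was at -3.54, -5.38 and -2.97 and then at 2.41, 2.39 and 2.18, a rise of 6.29 (SE 0.49, adjusted p = 3.45e-06), while its other probe changed by 1.39. Of 15 genes in this list 4 rose and 6 fell.

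Transcription factors of the immediate early class rose or stayed uncalled, apart from one. Jun, Junb and Fosl2, subunits of AP-1, rose by 1.75, 2.11 and 1.91. Nr4a1, an orphan nuclear receptor that follows contraction, was at 6.33, 5.72 and 5.62 and then at 2.99, 2.97 and 2.19, a fall of 3.17 (SE 0.38, adjusted p = 6.33e-05). The groups were far apart, and it was the single fall among 16 genes of which 5 rose. In the circadian clock list 3 of 16 genes rose and 4 fell. Per2, a core clock repressor, rose by 2.83 with KO control 3 at -0.47 against -3.56 and -3.58 for the other control arrays. The other probe of Per2 changed by -0.44.

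Signalling components of the pathways that converge on Smad4 changed at each level, in both directions. The pathway begins with BMP, myostatin or TGF-beta ligands, which bind type I and type II receptors that phosphorylate receptor Smads, and inhibitory Smads and secreted antagonists limit it. Among BMP ligands, Gdf5, which protects denervated muscle from loss, was at -2.80, -2.75 and -1.64 and then at 3.53, 3.12 and 3.38, a rise of 5.74 (SE 0.34, adjusted p = 6.16e-07). Gdf6, a close relative, was not above background on any KO control array and was at least 24.8-fold higher. Bmp7 and Bmp6 fell by 1.72 and 1.57. The induced and reduced ligands were each apart between groups on all arrays.

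**Figure D2:**
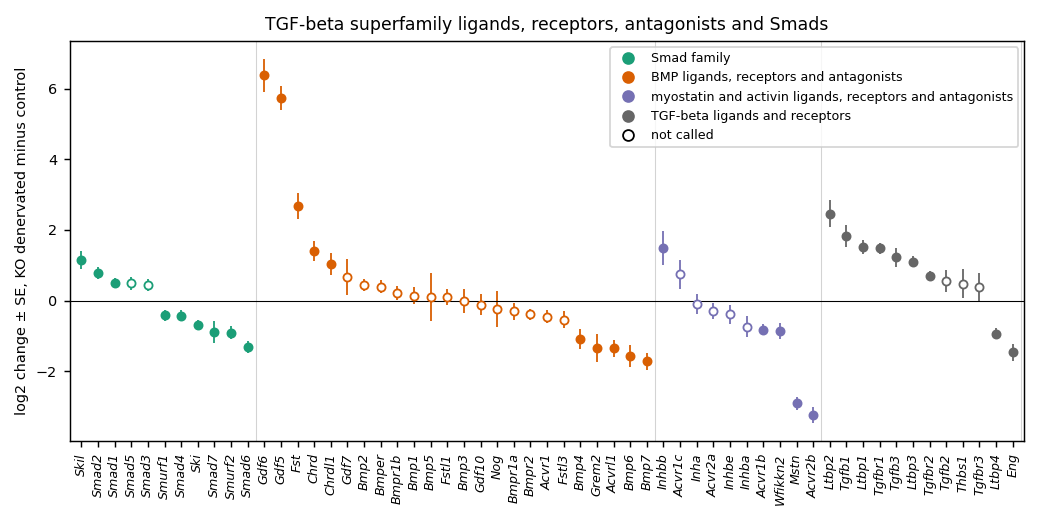
Change of each ligand, receptor, antagonist and Smad of the TGF-beta superfamily after denervation of KO muscle, as log2 change with bars of 1 SE, filled where called and open where not, coloured by list. Gdf6, whose control arrays lie below background so that its fitted 6.38 is no bound, and Gdf5 at 5.74 lead the BMP list, and Mstn and Acvr2b end the myostatin and activin list at -2.91 and -3.24.

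Secreted antagonists rose, with Fst, which binds activins and myostatin, at -0.90, -2.26 and -1.66 and then at 0.45, 1.61 and 1.17, a rise of 2.68 (SE 0.37, adjusted p = 0.000178). Chrd, a BMP antagonist, rose by 1.41. The receptor genes Bmpr1a and Bmpr2 were not called (changes of -0.30 and -0.39), and Acvrl1, a receptor known from endothelium, fell by 1.35. Over the BMP list 5 of 24 genes rose and 5 fell, with a median of 0.05, which is close to the median of all genes.

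Myostatin and its receptor were among the clearest falls. Mstn, the ligand that limits muscle mass, was at 2.98, 2.55 and 2.69 and then at -0.31, 0.04 and -0.23, a fall of 2.91 (SE 0.18, adjusted p = 7.51e-07). Acvr2b, the type II receptor for myostatin and activins, was at 0.71, 0.96 and 0.89 and then at -2.42, -2.54 and -2.18, a fall of 3.24 (SE 0.22, adjusted p = 1.21e-06). Both genes were lower on each denervated array than on each control array by more than 2. The type I receptor Acvr1b fell by 0.83. In this list of 10 genes 1 rose and 4 fell, with a median of -0.57.

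TGF-beta ligands and receptors rose as a group, with 7 of 12 called higher and 2 lower and a median of 0.90. Tgfbr1, the type I receptor, was at 1.33, 1.43 and 1.44 and then at 2.98, 2.82 and 2.84, a rise of 1.48 (SE 0.15, adjusted p = 1.6e-05). Tgfb1, the main ligand, was at -1.47, -1.58 and -1.68 and then at 0.79, -0.38 and 0.36, a rise of 1.83 (SE 0.30, adjusted p = 0.000573). The control arrays of each gene lay close together and below all denervated arrays. Ltbp2, Ltbp1 and Ltbp3, proteins that hold latent TGF-beta in the matrix, rose by 2.46, 1.53 and 1.1, while Ltbp4 fell by 0.94. Eng, an accessory receptor of endothelium, fell by 1.47 together with the endothelial markers described below.

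Inside the cell, 3 of 11 Smad family genes rose and 6 fell, with a median of -0.42 (1 and 1 with normexp). Smad6, an inhibitory Smad and a known BMP target, was at -0.32, -0.25 and -0.33 and then at -1.21, -1.82 and -1.83, a fall of 1.32 (SE 0.16, adjusted p = 8.45e-05). Smad2, a receptor Smad of the TGF-beta branch, rose by 0.77 and Skil, a repressor of Smad complexes, by 1.15. Ski and Smurf2, a repressor and a ubiquitin ligase that limit the pathway, fell by 0.68 and 0.91. The calls of Smad6, Smad2 and Smurf2 were lost with normexp.

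Known targets of the BMP branch did not move together. Id1, the textbook target, was at 2.56, 0.88 and 1.18 and then at 1.49, 0.83 and 0.83, so that the groups overlapped and the change of -0.49 (SE 0.39) was not called (adjusted p = 0.328). Id2 rose by 1.76 and Id4 by 0.94, whereas Hey1 and Msx1 fell by 1.03 and 0.79. In total 2 of 13 BMP targets rose and 4 fell. Among targets of TGF-beta 7 of 17 rose and 2 fell. Timp1, an inhibitor of matrix proteases, rose by 2.75 and Ccn1, a matricellular protein, by 2.04, while Ccn2, a standard reporter of the pathway, changed by 0.01 and was not called.

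Of 14 embryonic and cardiac isoform genes 5 rose, 1 fell and 8 were not called, with a median of 0.18. Myh3, embryonic myosin, was at 0.47, 0.67 and 1.50 and then at 5.72, 5.03 and 5.51, a rise of 4.54 (SE 0.58, adjusted p = 9.88e-05). Tnnt2, cardiac and embryonic troponin T, was at -0.81, -1.16 and -0.71 and then at 3.09, 3.18 and 3.34, a rise of 4.10 (SE 0.24, adjusted p = 5.82e-07). Both were apart by more than 3 between groups. Myl4, the embryonic myosin light chain, and Ankrd1, a stretch-sensitive titin partner, rose by 4.46 and 4.77. Actc1, cardiac actin, fell by 2.61. Perinatal myosin Myh8 had probes at -0.67 and 3.91, and its brighter probe was not called.

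Among fast fibre genes 11 of 15 fell and none rose, with a median of -0.82, but after quantile normalization the median was -0.11 with 1 rise and 2 falls. Casq1, the calcium store protein of fast fibres, was at 5.99, 6.47 and 6.18 and then at 3.96, 3.37 and 4.13, a fall of 2.39 (SE 0.25, adjusted p = 2.53e-05). Mybpc2, fast myosin-binding protein C, was at 8.10, 8.25 and 8.31 and then at 6.50, 6.84 and 6.56, a fall of 1.58 (SE 0.18, adjusted p = 4.83e-05). Both had arrays well apart. The fast myosin heavy chains were the least clear: Myh4 was at 8.95, 9.09 and 8.95 and then at 7.55, 8.80 and 8.20 (change -0.82, adjusted p = 0.0644), Myh2 changed by -0.37 (adjusted p = 0.0988), and the call of Myh1 at -0.49 was lost under 9 alternatives. Under quantile normalization the signs of Myh1 and Myh2 turned.

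Slow fibre genes showed 2 rises and 4 falls among 14. Sln, sarcolipin, which inhibits the calcium pump, was at 2.76, 2.44 and 4.43 and then at 7.43, 7.84 and 7.51, a rise of 4.39 (SE 0.40, adjusted p = 9.57e-06). Myl2, the slow myosin light chain, was at 6.54, 6.97 and 6.52 and then at 4.96, 3.51 and 3.07, a fall of 2.83 (SE 0.40, adjusted p = 0.000201). KO control 3 was the highest control array for Sln and KO denervated 1 the highest denervated array for Myl2. Slow myosin Myh7 lacked a value on 3 of 6 arrays and was not called. Of 25 thin filament, Z disc and M band genes 3 rose and 12 fell, with a median of -0.63 (-0.22 after quantile normalization, with 6 rises and 10 falls). Ldb3, the Z disc protein ZASP, fell by 2.80 and Myoz1 by 2.00, while Myom3, the M band protein myomesin 3, rose by 2.71 and Fhl2 by 2.16.

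The machinery that couples the action potential to contraction was lower. Of 21 genes 14 fell and 2 rose, with a median of -0.61 (-0.31 after quantile normalization, with 10 falls and 2 rises). Jph2, junctophilin 2, which ties the T tubule to the calcium store, was at 5.23, 5.76 and 5.41 and then at 3.16, 2.93 and 3.40, a fall of 2.30 (SE 0.20, adjusted p = 6.72e-06). Srl, sarcalumenin, and Cacng6, a calcium channel subunit, fell by 1.40 and 2.25. Cacng1, the subunit of the skeletal muscle calcium channel, moved the other way, at 3.61, 3.92 and 3.75 and then at 5.03, 5.26 and 5.36, a rise of 1.46 (SE 0.15, adjusted p = 1.88e-05). The pore subunits Cacna1s and Ryr1 changed by -0.52 (adjusted p = 0.0742) and -0.61, and only the latter was called, with its sign turned after quantile normalization (0.03).

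Ion channels of the surface membrane moved in both directions. Scn4a, the adult muscle sodium channel, was at 1.65, 2.06 and 1.68 and then at 0.76, 0.40 and 0.72, a fall of 1.17 (SE 0.22, adjusted p = 0.00147). Its groups did not overlap. Kcnc1, a fast potassium channel, was at 1.67, 2.21 and 2.27 and then at -2.33, -3.11 and -3.67, a fall of 5.08 (SE 0.31, adjusted p = 7.56e-07) and the largest among genes above background on all 6 arrays with arrays apart. Over the potassium channel family 5 of 34 genes rose and 14 fell, with a median of -0.77 (3 and 9 with normexp, with a median of 0.02). Kcnq5 rose by 2.80, and Kcnn1 and Kcnj12 fell by 1.93 and 2.67. In the wider list of sodium channels and excitability genes 6 of 22 rose and 12 fell. Of the dystrophin complex, which links the fibre skeleton to the matrix, 4 of 18 genes rose and 7 fell. Nos1, the nitric oxide synthase held by the complex, fell by 3.14 from 3.71, 4.26 and 3.58 to 0.47, 1.22 and 0.45, while Utrn, utrophin, rose by 1.12.

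Genes of protein breakdown gave a mixed picture at 14 days. Fbxo32, the ubiquitin ligase atrogin-1, was at 5.04, 4.59 and 3.84 and then at 4.43, 5.51 and 4.10 (change 0.18, SE 0.51, adjusted p = 0.79). Trim63, the ligase MuRF1, was at 6.14, 6.12 and 5.59 and then at 6.33, 6.06 and 5.72 (change 0.09, SE 0.23, adjusted p = 0.778), and its other probe gave 1.65. Both of these atrophy markers overlapped between groups. Fbxo30, the ligase MUSA1 that BMP signalling is known to restrain, was at 0.05, -0.06 and -0.10 and then at 0.93, 1.71 and 0.68, a rise of 1.15 (SE 0.24, adjusted p = 0.00231). Mdm2, the ligase of p53, rose by 1.74, and Asb2, Asb4 and Fbxo40 fell by 1.97, 2.01 and 1.28. Over the list 4 of 20 ligases rose and 7 fell, with a median of -0.03.

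The proteasome, which degrades ubiquitin-tagged proteins, rose by small amounts, with 24 of 47 genes called higher (51.1%) and 4 lower and a median of 0.43. Psmd11, a subunit of the regulatory cap, was at 5.34, 5.54 and 5.27 and then at 6.19, 6.42 and 6.07, a rise of 0.84 (SE 0.14, adjusted p = 0.00061). Psma4, a core subunit, rose by 0.77 and Psmc1, an ATPase of the cap, by 0.68. With the normexp background correction 1 gene of the family was called higher and 1 lower, at a median of 0.30. Psme3, an alternative activator, fell by 1.47, and the interferon-induced Psme1 by 0.60. In families next to it no such direction appeared: 3 of 33 ubiquitin-conjugating genes rose and 11 fell, 10 of 42 deubiquitinase genes rose and 13 fell, and 11 of 55 F-box genes rose and 14 fell. Ube2d1 fell by 1.98 and Usp11 rose by 1.67.

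Autophagy and lysosome genes rose in 10 of 35 cases and fell in 7, with a median of 0.24 (3 and 4 with normexp). Map1lc3a, which coats the autophagosome, rose by 1.52, from 3.82, 4.29 and 4.06 to 5.72, 5.33 and 5.67, and the protease Ctsl by 1.02. Tfeb, the regulator of lysosomal genes, was at 0.10, 0.19 and -0.14 and then at -2.24, -2.82 and -1.83, a fall of 2.34 (SE 0.36, adjusted p = 0.000335). Map1lc3a and Ctsl thus moved against Tfeb, but this contrast is not a trait of the list. Map1lc3b, Ulk2, Bnip3, Lamp1, Ctsa and Npc2 fell like Tfeb, and Sqstm1, Gabarap and Ctsb were not called. Capn3 and Capn1, calcium-activated proteases, fell by 1.96 and 1.77, while Casp4 and Bax, of the cell death pathway, rose by 1.46 and 1.30.

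Growth arrest genes held some of the strongest rises. Cdkn1a, the cell cycle inhibitor p21, was at 0.92, 1.33 and 1.11 and then at 5.93, 6.0 and 5.80, a rise of 4.79 (SE 0.29, adjusted p = 7.4e-07). Gadd45a, a stress gene known to act downstream of Atf4 and Hdac4 in atrophy, was at 2.20, 2.22 and 2.62 and then at 6.38, 6.85 and 6.43, a rise of 4.20 (SE 0.19, adjusted p = 2.01e-07). No array of one group came within 3 of the other for either gene. Eda2r, the ectodysplasin A2 receptor, rose by 4.01 from 0.67, -0.02 and 0.51 to 4.16, 4.73 and 4.30. Ccng1 and Gadd45g fell by 0.94 and 1.38, so the list of 21 had 8 rises and 3 falls. In the cell cycle list 3 of 19 genes rose and 1 fell. Rrm2, which supplies deoxynucleotides, rose by 2.94 and Aurka, a mitotic kinase, fell by 2.53, while the proliferation marker Mki67 was at -0.57, -3.65 and -2.12 and then at -0.51, -1.60 and -0.79 and was not called.

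The insulin and IGF list had 11 rises and 6 falls among 26 genes, with a median of 0.50 (5 and 4 with normexp). Igfbp2, an IGF-binding protein, was at -4.53, -3.82 and -1.52 and then at 3.31, 3.92 and 3.46, a rise of 6.85 (SE 0.58, adjusted p = 6.07e-06), with 1 of 3 control arrays above background. Foxo1, the transcription factor of the atrophy programme, was at 2.27, 2.04 and 2.18 and then at 3.47, 3.51 and 3.71, a rise of 1.40 (SE 0.14, adjusted p = 1.62e-05). Irs1, the adaptor of the insulin receptor, was at 4.58, 4.46 and 4.16 and then at 1.84, 2.49 and 2.15, a fall of 2.24 (SE 0.29, adjusted p = 0.000105). These 3 genes were apart between groups, whereas Igf1 changed by 0.52 and was not called (adjusted p = 0.119). Of 18 genes of the integrated stress response, 5 rose and 2 fell. Fgf21, a stress hormone, was above background on the denervated arrays alone, and Gdf15 rose by 3.18. Atf4, the factor at the head of that response, fell by 0.93 and Chac1, one of its targets, by 2.43.

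Polyamine enzymes moved in both directions. Agmat, which makes putrescine from agmatine, was at -3.28, -3.33 and -2.96 and then at 2.98, 3.39 and 2.25, a rise of 6.06 (SE 0.43, adjusted p = 1.87e-06). Odc1, the enzyme of the alternative route to putrescine, was at 4.25, 4.52 and 4.47 and then at 5.68, 6.13 and 5.93, a rise of 1.50 (SE 0.18, adjusted p = 7.23e-05). Amd1, which supplies the donor for spermidine, was at 5.03, 5.33 and 5.19 and then at 2.26, 3.15 and 2.49, a fall of 2.55 (SE 0.24, adjusted p = 1.12e-05). Smox, spermine oxidase, fell by 2.32, while the synthases Srm and Sms were not called. In all 5 of 15 genes rose and 4 fell.

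Energy metabolism was the largest coherent block of lower genes. Over 9 lists from glycolysis to ATP synthase, 164 of 211 genes (77.7%) fell and 7 rose, with a median of -0.98, against 23.2% of all genes lower. Changes of negative sign numbered 201. In the glycolysis list 19 of 26 fell and 1 rose, with a median of -1.56 (-1.02 after quantile normalization, with 18 falls). Slc16a3, the transporter that exports lactate, was at 6.41, 6.62 and 6.05 and then at 1.99, 2.05 and 1.18, a fall of 4.62 (SE 0.24, adjusted p = 2.94e-07). Pfkfb1, which sets the level of an activator of glycolysis, was at 3.35, 3.23 and 3.29 and then at -0.33, -0.07 and -0.58, a fall of 3.62 (SE 0.22, adjusted p = 7.4e-07). The denervated arrays of both lay below all control arrays by more than 3. Fbp2, the muscle bisphosphatase, and Ldhd, which uses D-lactate, fell by 3.50 and 3.14. Gapdh, often used as a reference gene, was at 9.10, 8.95 and 8.89 and then at 7.53, 6.84 and 7.25, a fall of 1.77 (SE 0.21, adjusted p = 6.29e-05).

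Glycogen enzymes fell in 11 of 16 cases and none rose. Pygm, the phosphorylase that frees glucose from glycogen, was at 7.18, 7.59 and 7.55 and then at 5.47, 4.64 and 5.46, a fall of 2.25 (SE 0.25, adjusted p = 3.8e-05). Phkg1, the kinase subunit that activates it, and Ppp1r3c, a targeting subunit of the opposing phosphatase, fell by 1.85 and 3.02. In creatine and adenylate energy transfer 10 of 17 fell and 4 rose. Ampd1, the adult muscle AMP deaminase, was at 6.85, 7.02 and 6.90 and then at 4.65, 4.61 and 4.76, a fall of 2.25 (SE 0.13, adjusted p = 4.82e-07). Ampd3, the isoform of other tissues, was at -1.25, -1.1 and -0.81 and then at 1.79, 1.29 and 1.80, a rise of 2.68 (SE 0.24, adjusted p = 7.53e-06). The isoforms thus moved in opposite directions, each with arrays apart. Other pairs, chosen after the values were seen, also moved in opposite directions. Prkaa1 rose by 0.64 and Prkaa2 fell by 2.18, both catalytic subunits of AMP kinase. Cox8a rose by 0.56 while the muscle form Cox8b fell by 1.25. The calls of the rising Prkaa1 and Cox8a were lost with normexp.

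Mitochondrial fuel oxidation was lower at each stage. In the citric acid cycle 27 of 32 genes fell and 1 rose, with a median of -1.17, and in fatty acid oxidation 25 of 32 fell and none rose, with a median of -1.15. Idh2, mitochondrial isocitrate dehydrogenase, was at 3.73, 4.30 and 4.14 and then at 0.88, 0.13 and 0.21, a fall of 3.66 (SE 0.22, adjusted p = 7.43e-07). Sdhb, the iron-sulfur subunit of succinate dehydrogenase, was at 6.38, 6.77 and 6.62 and then at 4.40, 4.36 and 4.41, a fall of 2.20 (SE 0.16, adjusted p = 2.24e-06). Both had denervated arrays below every control array. Oxct1, which activates ketone bodies, Cpt1b, the gate for fatty acids into mitochondria, and Fabp3, their carrier in the cytosol, fell by 2.11, 2.03 and 2.34. Bdh1, the enzyme that interconverts ketone bodies, was at 2.93, 2.42 and 3.12 and then at 0.50, -1.66 and -2.02, so that KO denervated 1 stood between the other denervated arrays and the controls.

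The respiratory chain fell subunit by subunit, with smaller changes. Of complex I genes 36 of 44 fell, of complex III 9 of 12, of cytochrome c oxidase 12 of 15 and of ATP synthase 15 of 17, with medians of -0.91, -0.94, -0.83 and -0.82. Among these 88 genes 1 rose. After quantile normalization the medians of complex III, the oxidase and ATP synthase were smaller, at -0.55, -0.32 and -0.40, with 7, 7 and 10 falls. With normexp 25, 6, 5 and 8 genes of the 4 complexes fell. Cox7a1, the muscle isoform of an oxidase subunit, was at 7.57, 7.67 and 7.62 and then at 5.93, 5.50 and 5.34, a fall of 2.03 (SE 0.19, adjusted p = 1.3e-05). Atp5g1, of the rotor of ATP synthase, fell by 1.69, Ndufa10 by 1.56 and Cyc1 by 1.44. The mitochondrial ribosome was less affected, with 34 of 78 genes lower and 2 higher and a median of -0.36, and import subunits had 8 falls and 3 rises among 23. In the mitochondrial carrier family 19 of 38 fell and 3 rose. Slc25a12, an aspartate and glutamate carrier, fell by 1.62 and Slc25a24, a carrier of ATP and phosphate, rose by 1.57.

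**Figure D3:**
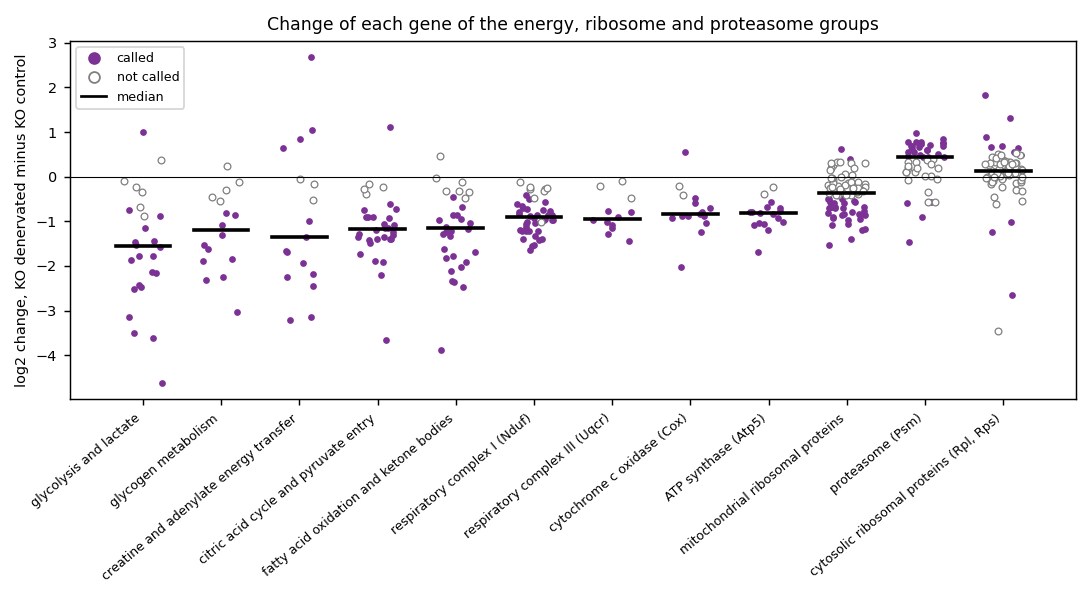
Change of each gene of the energy, mitochondrial ribosome, proteasome and cytosolic ribosome groups after denervation of KO muscle, as log2 change, filled where called and open where not, with a bar at the median of the group. The energy medians run from -0.82 to -1.56, while those of the proteasome and the cytosolic ribosome are 0.43 and 0.13.

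Regulators of mitochondrial genes fell with them. Ppargc1a, the coactivator PGC-1alpha, was at 2.29, 2.73 and 2.78 and then at 1.05, 1.67 and 0.79, a fall of 1.43 (SE 0.25, adjusted p = 0.000912). Perm1, a regulator acting with it in muscle, was at 4.33, 4.93 and 4.56 and then at 0.53, 0.03 and -1.53, a fall of 4.93 (SE 0.41, adjusted p = 5.26e-06). Both were apart, with KO denervated 3 the lowest array for each. The nuclear receptors Rxrg, Ppara and Esrra fell by 3.03, 2.74 and 1.62. The list of 24 had 13 falls and 2 rises, with Pprc1, a relative of PGC-1, up by 0.76.

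Few cytosolic ribosomal proteins were called, with 9 of 92 genes higher (9.8%), 3 lower (3.3%) and a median of 0.13. That group depended on the scaling, since after quantile normalization its median was 0.54 and 64 genes were called higher. The family was taken by symbol and therefore also holds ribosomal S6 kinases, one of which, Rps6ka2, fell by 2.64. Among translation initiation factors 12 of 51 rose and 9 fell (1 and 4 with normexp), with Eif4a1, an RNA helicase, up by 1.07 and Eif4ebp2, a translational repressor, down by 1.36. Of heat shock and DnaJ genes 18 of 63 rose and 17 fell (5 and 9 with normexp). Dnajb5 and Hspb6 fell by 2.44 and 2.38, and Hspa4l and Hspa2 rose by 1.88 and 1.43.

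**Figure D4:**
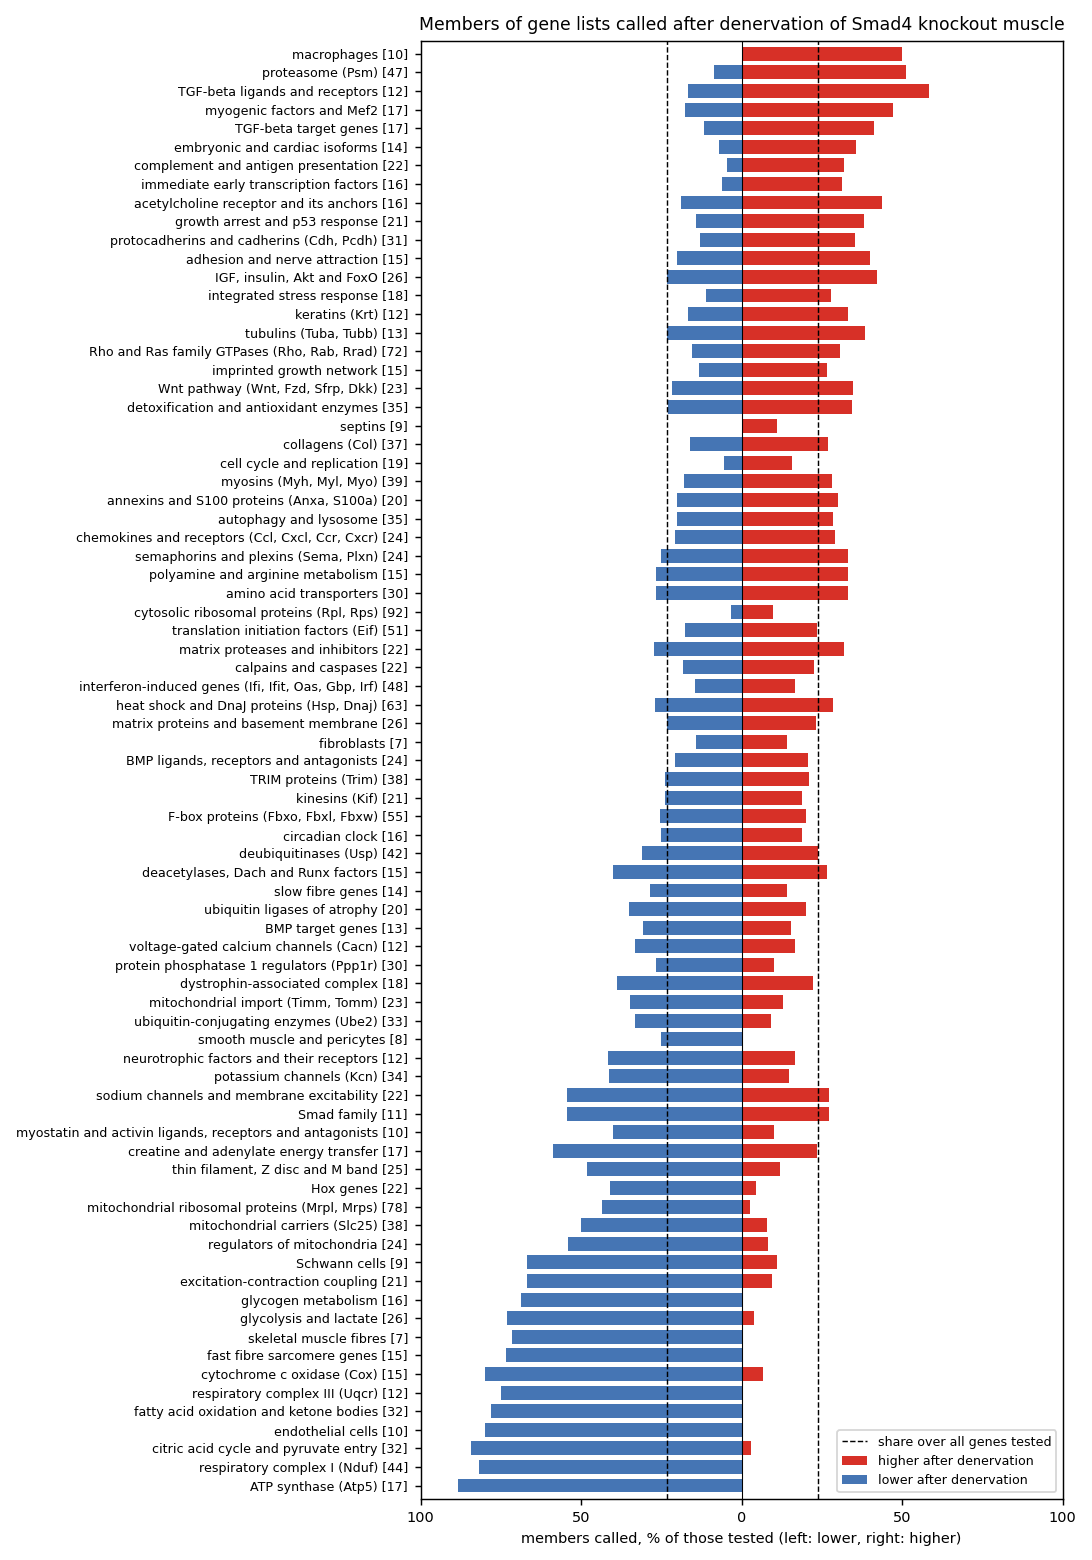
Members of each list or symbol family called after denervation of KO muscle, in percent of those tested, with lower calls to the left in blue, higher calls to the right in red, the number tested in brackets and dashed lines at the shares over all genes (23.2% lower, 23.7% higher). Lists with at least 7 genes tested are drawn, apart from the zinc finger and olfactory receptor families. ATP synthase (88.2% lower) and the citric acid cycle (84.4%) reach farthest to the left and TGF-beta ligands and receptors (58.3% higher) farthest to the right.

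Detoxifying and antioxidant genes rose in 12 of 35 cases and fell in 8. Mt2, the metal-binding protein metallothionein 2, was at 2.50, 2.57 and 2.21 and then at 5.49, 5.56 and 5.32, a rise of 3.03 (SE 0.27, adjusted p = 7.85e-06). Aldh1a1, which oxidises retinal, was at 3.45, 3.92 and 3.81 and then at 0.73, 0.40 and 0.55, a fall of 3.16 (SE 0.24, adjusted p = 2.68e-06). Both were apart between groups. Txn1 and Gclc, of the thioredoxin and glutathione systems, rose by 1.45 and 0.98, and the mitochondrial peroxidase Prdx5 fell by 0.94.

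Matrix genes moved in both directions. Of 26 genes 6 rose and 6 fell, with a median of -0.04. Thbs4, a thrombospondin of muscle and tendon, was at 3.50, 3.32 and 3.14 and then at 5.10, 5.25 and 5.10, a rise of 1.83 (SE 0.14, adjusted p = 3.14e-06). Lox, which cross-links collagen, Postn and Tnc rose by 2.45, 3.1 and 2.07, while the basement membrane genes Lamc1, Nid2 and Lama2 fell by 0.83, 0.89 and 0.96. Of the collagens 10 of 37 rose and 6 fell. Col19a1, a collagen found at synapses, was at -2.89, -2.93 and -1.67 and then at 4.11, 4.76 and 4.17, a rise of 6.84 (SE 0.34, adjusted p = 2.56e-07). The main fibrillar genes Col1a1 and Col1a2 changed by 0.22 and 0.07 and were not called, and Col4a2, of the basement membrane, fell by 1.41. The protease inhibitor genes Serpine2 and Timp4 fell by 2.03 and 2.27 and the protease Mmp3 rose by 2.95.

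Complement and antigen presentation genes rose in 7 of 22 cases and fell in 1, with a median of 0.51 (2 and 0 with normexp). C4b was at -0.03, -0.78 and -0.55 and then at 1.29, 1.32 and 1.26, a rise of 1.74 (SE 0.30, adjusted p = 0.000725). The interferon-induced family had 8 rises and 7 falls among 48 genes. Ifitm3, a membrane protein that restricts viruses, was at 3.68, 3.37 and 3.52 and then at 5.66, 6.37 and 5.91, a rise of 2.46 (SE 0.20, adjusted p = 5.19e-06). Ifitm6 and Ifitm7 rose by 3.18 and 2.49, and Gbp7 fell by 1.47. The chemokine genes Ccl8 and Ccl7 rose by 3.07 and 1.66, and Ccl11 fell by 1.61.

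Among families taken by symbol, keratins held some of the largest rises. Krt18, an epithelial keratin, was at -2.06, -0.98 and 1.99 and then at 6.60, 7.42 and 7.10, a rise of 7.39 (SE 0.85, adjusted p = 4.7e-05), and its partner Krt8 rose by 8.37 with 1 of 3 control arrays above background. KO control 3 stood above the other control arrays for both. Summed over the family the linear level was 2.40 to 6.68 in KO control and 133.67 to 234.07 in KO denervated muscle, where 1 is the 75th percentile of the array, while 4 of 12 genes rose and 2 fell. Tubulin genes rose in 5 of 13 cases and fell in 3, with Tubb2b up by 2.36 and Tuba8, a muscle tubulin, down by 3.41. Cadherins and protocadherins rose in 11 of 31 cases and fell in 4 (3 and 1 with normexp). Cdh4, R-cadherin, fell by 4.87 and Pcdhb17 and Pcdhb21 rose by 1.49 and 1.64.

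Positional and signalling families moved less evenly. Of 22 Hox genes 9 fell and 1 rose (4 and 0 with normexp), with Hoxd8 down by 1.01, Hoxc10 down by 1.14 and Hoxa7 up by 1.07. Among Wnt pathway genes 8 of 23 rose and 5 fell. Wnt9a was at 0.80, 0.79 and 0.55 and then at 2.44, 2.03 and 2.10, a rise of 1.47 (SE 0.14, adjusted p = 1.29e-05), and the receptors Fzd9 and Fzd7 fell by 2.04 and 2.15. Semaphorin Sema6a, an axon guidance molecule, rose by 3.31 and Sema6c fell by 2.59. The amino acid transporter family had 10 rises and 8 falls among 30 genes, with Slc43a2 and Slc7a5, transporters of large neutral amino acids, up by 2.47 and 1.63 and Slc7a2, a cationic transporter, down by 2.16.

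Markers of other cell types moved with denervation as well, and their part in the results above was not tested. Endothelial markers were lower in 8 of 10 cases and higher in none, with a median of -1.14, and their summed linear level fell from 46.22 to 49.15 in KO control to 22.98 to 29.75 in KO denervated muscle. Kdr, the VEGF receptor of endothelium, was at 1.54, 1.68 and 1.73 and then at 0.44, 0.72 and -0.02, a fall of 1.27 (SE 0.20, adjusted p = 0.000418). Of 9 Schwann cell markers 6 fell and 1 rose (4 and 1 with normexp), and the summed level went from 16.52 to 33.71 to 8.15 to 9.04. Prx, periaxin of myelinating cells, was at -0.87, -0.97 and 0.07 and then at -3.94, -4.62 and -4.47, a fall of 3.76 (SE 0.45, adjusted p = 6.09e-05). For both lists every denervated array had a lower sum than every control array.

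Macrophage markers rose in 5 of 10 cases and fell in none, with a median of 0.68. Their summed level ranged from 26.81 to 62.52 in KO control and from 54.03 to 79.80 in KO denervated muscle, so the groups overlapped. Cd68 and Itgam rose by 1.26 and 1.27, and with the normexp background correction none of the 10 was called, at a median of 0.56. Of 3 erythrocyte markers tested all fell, with Hba-a1 at 4.99, 5.24 and 4.14 and then at 2.32, 3.56 and 2.48, a fall of 2.00 (SE 0.40, adjusted p = 0.00178), and with a summed level of 18.50 to 39.38 against 5.22 to 12.18. Smooth muscle markers fell in 2 of 8 cases with summed levels of 271.73 to 324.34 and 106.21 to 133.73. Fibroblast markers, with 1 rise and 1 fall among 7, ranged over 109.60 to 153.35 and 94.97 to 113.32. None of 5 adipocyte and 5 satellite cell markers was called, and their sums overlapped between groups, at 65.90 to 104.94 against 72.33 to 105.19 and at 4.66 to 6.99 against 4.69 to 6.26. The 3 T and B cell and 6 granulocyte markers tested had 2 falls each and no rise, with sums of 0.17 to 0.40 against 0.12 to 0.14 and of 3.56 to 24.37 against 4.26 to 6.15. The 1 neuronal marker tested, Tubb3, was not called. Skeletal muscle fibre markers had sums of 2651.33 to 2768.34 in KO control and 1247.46 to 1681.60 in KO denervated muscle, and 5 of 7 fell. After quantile normalization 1 of those 7 was called lower.

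The largest rises among genes above background on all 6 arrays, beyond those already named, included membrane and cytoskeletal genes. Emb, embigin, a chaperone of lactate transporters that promotes nerve sprouting, was at -1.05, -1.70 and -1.26 and then at 4.45, 4.27 and 4.51, a rise of 5.74 (SE 0.19, adjusted p = 1.63e-08). Aif1l, an actin-bundling protein, was at 0.68, 0.66 and 0.74 and then at 5.68, 6.12 and 5.73, a rise of 5.15 (SE 0.17, adjusted p = 1.63e-08). These had very little spread for changes of such size. Rrad, a small GTPase that inhibits calcium channels, was at -0.86, 0.04 and 0.87 and then at 5.44, 6.31 and 5.70, a rise of 5.80 (SE 0.41, adjusted p = 1.96e-06). Plekhh1, Micall2 and Sh3d19, proteins of the cytoskeleton and membrane traffic, rose by 5.82, 5.34 and 4.71. Lpin2, a phosphatidate phosphatase, rose by 4.40, Atp13a3, a transporter linked to polyamines, by 4.78 and Tekt1, known from cilia, by 4.94.

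Among the largest falls, Dhrs7c, an enzyme of the sarcoplasmic reticulum, was at 4.90, 4.65 and 4.83 and then at 0.04, -0.26 and -0.52, a fall of 5.04 (SE 0.31, adjusted p = 7.43e-07). Ostn, the muscle hormone musclin, was at 3.14, 2.84 and 3.13 and then at -1.59, -1.09 and -2.46, a fall of 4.75 (SE 0.36, adjusted p = 2.85e-06). All 3 denervated arrays of each lay more than 3 below the controls. Plcd4, a phospholipase C, fell by 3.74, Slc41a3, a magnesium transporter, by 3.69, Ramp1, a subunit of the CGRP receptor, by 3.69 and Map2k6, a kinase above p38, by 3.56. Tigar, which lowers glycolytic flux, fell by 3.63 and Mlf1 by 3.56. Ppp1r1a, a phosphatase inhibitor, was at 5.49, 5.97 and 5.40 and then at 2.21, 2.30 and 2.07, a fall of 3.42 (SE 0.19, adjusted p = 3.67e-07).

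Some genes could be given only as bounds, since one group was below background on every array. Called genes above background on every KO denervated and no KO control array numbered 438, and the reverse held for 72. These counts depend on detection, and more probes were well above background on KO denervated (55.4% to 55.5%) than on KO control arrays (49.9% to 51.9%). Aldh3a1, an aldehyde dehydrogenase of the cornea, was at least 133-fold higher, Igfn1, a Z disc protein, at least 94.9-fold, and the transcription factors Sox11 and Egr3 at least 18.1-fold and 26.7-fold. The denervated arrays of Igfn1 were at 3.35, 1.33 and 3.00, with KO denervated 2 the lowest. Genes above background only in KO control muscle included Kcng4, a modifier of potassium channels, at least 21.4-fold lower. Fgf6, a muscle growth factor, was at least 14.6-fold lower, and Ky, a protein of the muscle Z disc, at least 6.34-fold. Several low genes of this kind were called under most settings but lost their call with another background correction.

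The KO response was then set against that of WT muscle, in which 5979 genes (39.3%) were called. Of the KO calls 68.3% were also WT calls and of the WT calls 81.5% were also KO calls, with 4862 genes changed in the same direction in both and 13 in opposite directions. A gene called in one genotype alone is not shown to differ, so the difference of the responses was tested itself. It was called for 28 genes (0.184% of those tested), 15 with a more positive and 13 with a more negative change in KO muscle, and 1436 genes had an unadjusted p under 0.05. With normexp none was called by limma (290 at an unadjusted p under 0.05), and with slide as a block 4 were called. Without KO control 2 or without WT control 2 5 were called, and without KO denervated 1 51 were called. Of the 28 genes, 12 had a symbol and were above background on all 12 arrays, and these are described below. The others included larger differences, such as Ankrd55 (-4.84) and BC034090 (4.37), with signals below background on some arrays.

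Cdkn1c, the imprinted cell cycle inhibitor p57, was at 2.39, 1.73 and 2.66 in KO control and at 5.37, 6.21 and 5.43 in KO denervated muscle, and at 2.09, 1.72 and 1.85 and then 2.69, 2.72 and 2.43 in WT. The rise of 3.41 in KO against 0.73 in WT gave a difference of 2.68 (SE 0.38, adjusted p = 0.0296). Its KO denervated arrays stood above all 9 others. Npr3, the clearance receptor for natriuretic peptides, was at -0.52, -0.35 and -0.58 and then at -1.85, -1.43 and -1.93 in KO, and at -0.38, -0.50 and -0.51 and then at 2.44, 2.58 and 1.44 in WT, a difference of -3.87 (SE 0.37, adjusted p = 0.00298). The gene fell in KO and rose in WT muscle, from control levels that overlapped. Its KO call was lost with normexp.

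Adora2b, an adenosine receptor, was at -3.26, -3.23 and -2.99 and then at -1.0, -0.15 and -0.64 in KO muscle and changed by 0.05 in WT, a difference of 2.51 (SE 0.32, adjusted p = 0.017). Rgcc, a regulator of the cell cycle, was at 4.23, 3.87 and 4.11 and then at 2.54, 2.21 and 1.96 in KO and rose by 0.72 in WT, a difference of -2.55 (SE 0.30, adjusted p = 0.0104). Hjurp, a histone chaperone of centromeres, and Ifitm7 rose by 2.91 and 2.49 in KO against changes of 0.46 and 0.77 in WT (differences of 2.45 and 1.72, adjusted p = 0.0444 and 0.0316). Vgll2 fell by 2.66 in KO and by 0.67 in WT, a difference of -1.99 (SE 0.33, adjusted p = 0.0485). For these 5 genes the KO change was the larger in size, whereas Myl12a, a myosin light chain of many tissues, rose less in KO (2.65) than in WT (3.83).

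Opposite directions in the 2 genotypes were found for 8 of the 28 genes, of which 6 were called in both. Stmn1, a destabiliser of microtubules, was at 1.43, 1.15 and 1.48 and then at 2.00, 2.68 and 2.46 in KO and fell by 0.66 in WT. Dkk3, of the Dickkopf family, rose by 0.98 in KO and fell by 0.96 in WT. Tspan9, a tetraspanin, fell by 1.03 in KO and rose by 0.42 in WT, and Sh3bp4, an endocytic adaptor, fell by 0.51 and rose by 0.90. The differences were 1.70, 1.95, -1.46 and -1.41, with adjusted p of 0.0400, 0.0296, 0.0303 and 0.0296. The KO calls of Dkk3 and Sh3bp4, like that of Npr3, were lost with normexp.

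**Figure D5:**
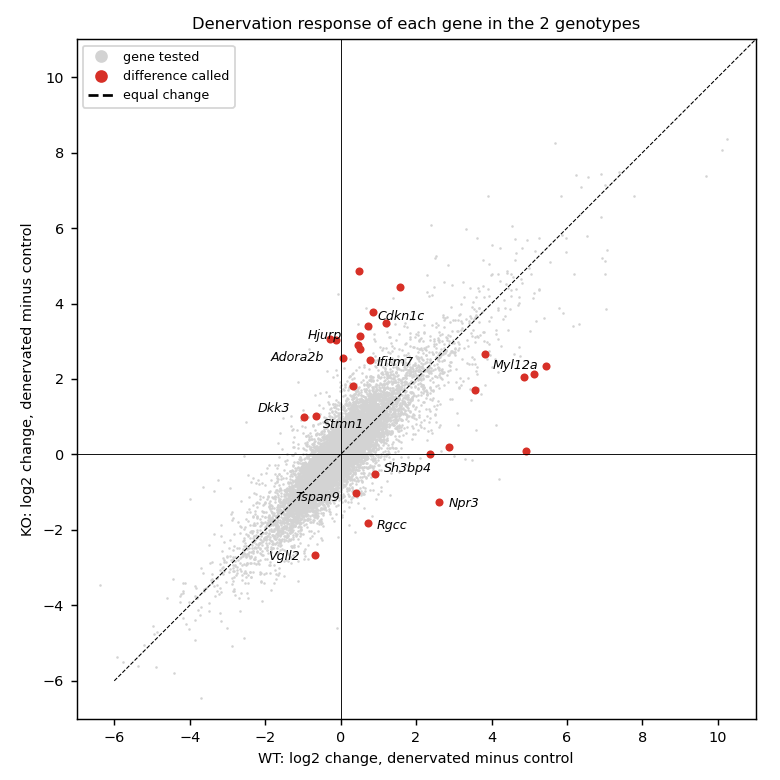
Denervation response of each gene tested as log2 change in WT muscle on the horizontal and in KO muscle on the vertical axis, with red points for the 28 genes whose difference was called and a dashed line of equal change. Most genes follow the line, Cdkn1c and Adora2b lie above it and Npr3 and Rgcc below it.

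For Chrna1, Mstn and Gdf5 no difference between genotypes was called. The changes of Chrna1 were 4.36 in KO and 4.51 in WT muscle, a difference of -0.15 (SE 0.18, adjusted p = 0.847). Those of Mstn were -2.91 and -2.25 (difference -0.66, SE 0.25, adjusted p = 0.446), and those of Gdf5 5.74 and 5.96 (difference -0.22, SE 0.48, adjusted p = 0.928). An adjusted p above the threshold does not show that the responses are equal, and the standard errors give the size of difference that could be missed. Over the 9 energy lists the median was -0.98 in KO and -0.72 in WT, and 176 of 211 genes changed more negatively in KO, against 64.9% of genes called lower in either genotype. None of those 211 differences was called, by limma on the 12 arrays. With quantile normalization 148 and with slide as a block 163 were more negative.

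Some differences in size that stood out beside the called ones did not pass the test. Kcnc1 changed by -5.08 and -2.88 (difference -2.21, SE 0.44, adjusted p = 0.0975). Id2 rose less in KO (1.76) than in WT (3.63), with a difference of -1.88 (SE 0.46, adjusted p = 0.166), and Gdf15 changed by 3.18 and 0.88 (difference 2.29, SE 0.53, adjusted p = 0.149). These were picked after their values were seen.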

How the data were processed

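Whole gastrocnemius RNA carrying Cy3 was measured on 12 Agilent arrays of 1 colour, 3 a group. The deposited scanner files hold processed intensity values, with background subtraction by Feature Extraction 10.7.3.1 per the file headers, while the submitters' processing notes name 10.5.1.1. From these, log2 intensity minus the 75th percentile of each array was computed, control spots were left out and spots of a probe averaged. Probes well above background on all 3 arrays of any of the 4 groups were kept. The probe brightest on average over all 12 arrays stood for its gene. Gene names came from RefSeq through accession, symbol or synonym, and otherwise from the file. limma 3.58.1 (R 4.3.3) was fitted to all 12 arrays with 4 group means, with Benjamini-Hochberg adjustment. The fit was tested on simulated data, in which few of 14995 genes were shifted. Of the genes shifted by 1, 54% were called, and of those shifted by 2, 96%. In the real KO comparison 46.9% of genes were called, so these shares need not apply to it.

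The members and gene lists were chosen with earlier results of these data known. Genes are named by a rule. It takes a panel of 31, the 12 largest bounds each way and anchors of a list. It also takes the 24 largest rises and falls above background on all 6 KO arrays with arrays apart. From each list it takes up to 4 called genes in the main direction and 3 in the other. Of called differences from WT it takes up to 10 each way, with a symbol and above background on all 12 arrays. A bound sets the bright group's mean against the lowest signal well above background. Alternatives covered slide or replicate number as a block, the 6 KO arrays alone, scaling, background correction (normexp), probe filters, the mean of probes, the authors' deposited value table and leaving out each array. Array numbers limit the precision.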

Additional observations from a re-analysis of the deposited data

Results flagged for a closer look

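These genes drew attention because the denervation response differed between the genotypes by the limma test of the difference itself, on the 12 arrays. They are the called genes with a symbol that were above background on all 12 arrays. The difference, KO change minus WT change, was positive for Cdkn1c (2.68), Adora2b (2.51), Hjurp (2.45), Dkk3 (1.95), Ifitm7 (1.72) and Stmn1 (1.70). It was negative for Npr3 (-3.87), Rgcc (-2.55), Vgll2 (-1.99), Tspan9 (-1.46), Sh3bp4 (-1.41) and Myl12a (-1.18).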

How the results depend on the processing

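Both directions of the denervation response depended most on the background correction. With normexp 2730 genes were called, 1183 higher and 1547 lower. Without a probe filter 3490 were higher and 6612 lower, but among 27591 genes tested instead of 15221. The count of genes whose response differed from WT was 4 with slide as a block, 9 with the replicate block, 5 without a probe filter, 11 with the strict filter and 0 with normexp by limma, where 290 had an unadjusted p under 0.05. Leaving out one array gave 5 to 51. The cause was not tested. Same-numbered deviations of the KO samples correlated at r = 0.09, 0.02 and 0.18, and differently numbered ones at -0.24 to 0.11. In WT they correlated at 0.30, 0.11 and 0.23, against -0.25 to 0.01. Some same-numbered arrays shared a slide and each group had 3 arrays, so these values do not settle whether replicate numbers pair samples. The replicate block called 7112 genes, and 5 of the 28 differences from WT remained called with it. Myh1 turned to 0.22 after quantile normalization and 0.19 in the deposited value table, Ryr1 likewise to 0.03 and 0.06, Myh2 to 0.36 after quantile normalization and Myh8 to 1.62 with the mean of probes. Signals near background limit low genes. Normexp was run with an offset of 50. The calls lost with it included low genes such as Sh3bp4 and also bright ones such as Psmd11, and the reason was not tested.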
